A study of Mus musculus with 6 samples.

Results

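The 36 genes described here encode enzymes that burn fatty acids and proteins that bind, store and release them, and all 36 had a row among the 26529 genes of the deposited table. They were picked by name for their known roles, with earlier results of these data in view: 22 act in oxidation, 4 activate fatty acids by joining them to coenzyme A, and 10 bind fatty acids or make, coat or hydrolyse stored triglyceride. RNA came from bone marrow cells of wild-type C57BL/6 mice aged 8 weeks, grown with macrophage colony-stimulating factor at 20 ng/ml and RANKL, the osteoclast-inducing cytokine, at 10 ng/ml. In 3 libraries (OCP) the cells were labelled osteoclast precursors and taken on day 3, and in the other 3 (OC) they were labelled osteoclasts and taken on day 6. Both groups received both cytokines, so no library shows untreated cells. No label tells whether replicates were separate mice or cultures. The p-values set each group difference against the spread between these libraries, which may be technical, and may therefore not extend to other mice or cultures.

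The labels were checked against marker genes. All 12 osteoclast markers of a list, Acp5 and Ctsk among them, were lower in the libraries labelled OC, with summed levels of 5188 to 5344 RPKM in OCP and 2779 to 2865 RPKM in OC. Macrophage markers had 8 genes higher and 3 lower of 11 tested, with sums of 6487 to 6916 RPKM in OCP and 9499 to 9933 RPKM in OC. Cx3cr1 and Mrc1, of the 8, passed the minimum level for testing, given below, only through OC, where they were high. Among all 12301 genes tested, 32.1% were lower and 23.5% higher in OC. The libraries labelled OC are therefore not the ones with more osteoclast transcripts, and "OC" below is only the label. Whether labels were exchanged, which would turn every rise and fall given here, or whether the day 6 cultures were past their peak was not tested. RPKM scales reads by exon length in kilobases and by the library's total assigned to genes, and the libraries held 33219178 to 42121216 such reads. Among values of 1 to 20 reads 77.9% were even numbers, and the cause of this was not tested.

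Fatty acids enter the cell, are coupled to coenzyme A, and are then either esterified into triglyceride that is kept in lipid droplets or passed as carnitine esters into mitochondria. There each round of beta-oxidation takes 4 steps, a dehydrogenation, a hydration, a second dehydrogenation and a thiolytic cleavage, and electrons from the first step reach the respiratory chain through the electron transfer flavoprotein. Peroxisomes shorten the chains that mitochondria cannot take. Osteoclasts are rich in mitochondria, and macrophages are known for fatty acid binding proteins and droplets that fill when they take up lipid.

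Genes of mitochondrial beta-oxidation were mostly lower in the libraries labelled OC, while both fatty acid binding proteins were higher. A gene was tested when it reached 1 RPKM in at least 3 of the 6 libraries, which 32 of the 36 genes did. Fabp4 passed only through its OC values. With limma on log2(RPKM + 1) and an adjusted p under 0.05 as the threshold, 21 of the 32 were lower and 6 higher in OC, beside 32.1% lower and 23.5% higher among all 12301 genes tested. In 22 of the 32 every OC library lay below every OCP library, and in 6 every OC library lay above, beside 36% and 26.7% of all genes tested. The median log2 fold change was -0.27 for the 32 genes and -0.05 for all genes. Most differences were small, and 18 of the 27 called genes differed by less than 1.5-fold in the ratio of mean RPKM. In such bulk libraries, fewer cells of a type and less RNA per cell cannot be told apart, and the part that the shifts of osteoclast and macrophage markers, and of the neutrophil markers given last, had in these differences was not tested.

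**Figure D1:**
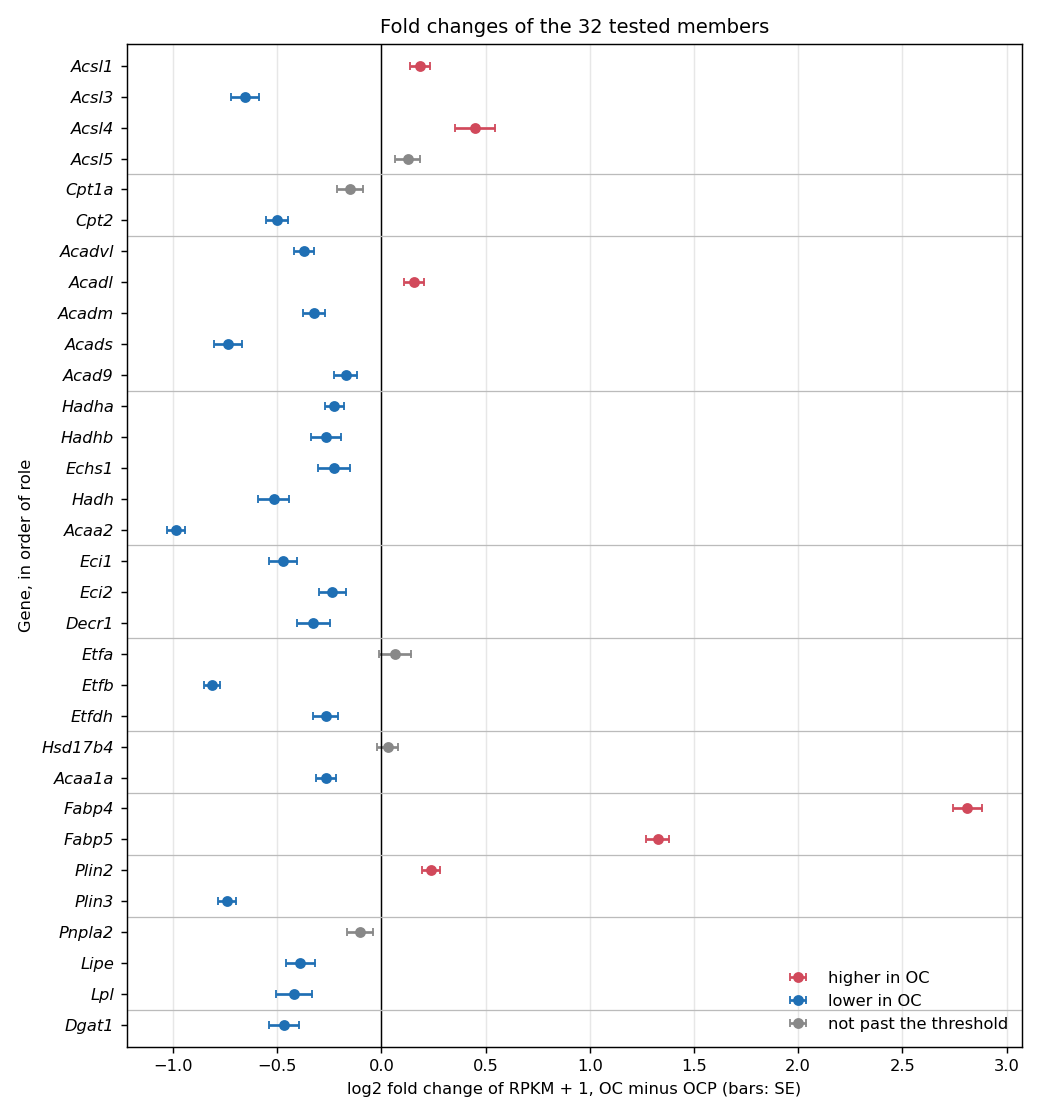
Log2 fold change of RPKM + 1 (OC minus OCP, horizontal axis) of the 32 tested genes, in order of their role, with bars for the standard error and grey lines between roles. Fabp4 at 2.81 and Fabp5 at 1.33 lie far to the right, and most genes from Cpt2 to Etfdh lie left of 0, with Acaa2 at -0.98 and Etfb at -0.81 the lowest.

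The long-chain acyl-CoA synthetases, which activate fatty acids, went in both directions. Acsl3, which sits on the endoplasmic reticulum and on nascent lipid droplets (chromosome 1, 78657825 to 78707743), measured 16.8, 15.6 and 16.0 RPKM in OCP and 9.47, 9.38 and 10.9 RPKM in OC. The OC libraries were all below the OCP libraries, a 1.63-fold fall (log2 fold change -0.65, SE 0.07, adjusted p = 0.00010). Acsl4, which prefers arachidonic acid, rose from 12.0 ± 1.53 to 16.7 ± 1.51 RPKM (SD, n = 3 per group; adjusted p = 0.0049). Acsl1 rose less, from 11.9 ± 0.373 to 13.7 ± 0.250 RPKM (adjusted p = 0.010). Acsl5, the most abundant of the family per counted length, measured 50.5 ± 2.37 RPKM in OCP and 55.3 ± 3.53 RPKM in OC with overlapping groups and did not pass (adjusted p = 0.11). Acsl3 made up 17.8% of the summed RPKM of the 4 synthetases in OCP and 10.4% in OC, and Acsl4 made up 13.2% and 17.4%. The exons of Acsl3 share 244 bases with Utp14b on the same strand, whose own level averaged 9.62 RPKM in OCP and 5.84 RPKM in OC.

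Carnitine palmitoyltransferases carry long acyl chains into the mitochondrion, Cpt1a at the outer and Cpt2 at the inner membrane. Cpt2 fell from 12.6 ± 0.596 to 8.63 ± 0.250 RPKM, which is 1.46-fold (log2 fold change -0.50, SE 0.05, adjusted p = 0.00013). Cpt1a, the rate-limiting enzyme of the pathway, was at 8.04, 7.47 and 7.34 RPKM in OCP and at 6.92, 6.28 and 7.10 RPKM in OC. Its OC libraries were all the lower ones, but the difference of -0.15 on the log2 scale (SE 0.06) did not pass (adjusted p = 0.074).

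Acyl-CoA dehydrogenases catalyse the first step, each for its range of chain lengths, and the enzymes for short, medium and very long chains were lower in OC. Acads, the short-chain enzyme (chromosome 5, 115110299 to 115119346), measured 24.2, 26.5 and 26.9 RPKM in OCP and 15.8, 15.7 and 13.9 RPKM in OC. The groups stood well apart, a 1.71-fold fall (log2 fold change -0.74, SE 0.07, adjusted p = 5.1e-05). The medium-chain Acadm fell from 19.2 ± 0.733 to 15.2 ± 0.722 RPKM, and the very-long-chain Acadvl from 31.5 ± 0.705 to 24.2 ± 1.14 RPKM. Acadl, the long-chain enzyme, went the other way, from 48.6, 44.7 and 48.6 RPKM in OCP to 52.8, 52.2 and 53.1 RPKM in OC. Among the mitochondrial oxidation genes of the set described here, Acadl was the single one that rose (log2 fold change 0.15, adjusted p = 0.024), by 1.11-fold. With any OC library left out the log2 fold change of Acadl was 0.15 to 0.16, and with OCP replicate 2 left out 0.12, and the threshold was missed (adjusted p between 0.053 and 0.075). Acad9, better known as an assembly factor of respiratory complex I, fell from 4.32 ± 0.111 to 3.72 ± 0.0775 RPKM (adjusted p = 0.027). Leaving out any OC library, or OCP replicate 1 or 3, left Acad9 at log2 fold changes of -0.18 to -0.16, against -0.17, and cost it its call (adjusted p between 0.051 and 0.079), as did a replicate block (-0.17, adjusted p = 0.057). Acad9 shares 559 counted bases with Gm43079 on the same strand, whose level averaged 13.0 RPKM in OCP and 10.4 RPKM in OC. Gm43079 held 274 to 306 reads in OCP, beside 1296 to 1530 for Acad9, and how reads in the shared bases were assigned was not tested. Of the counted exon bases of Acadvl, 42.9% also belong to Dvl2 on the opposite strand, and no source used here gives the strand setting of the counting.

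**Figure D2:**
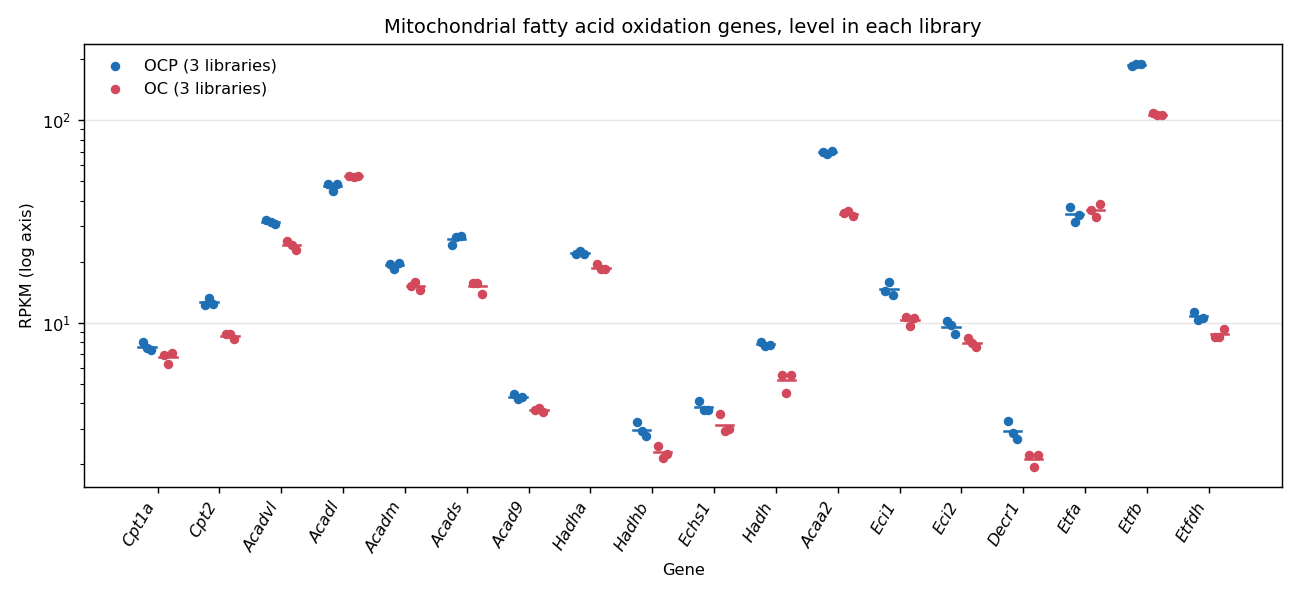
RPKM on a log axis for the 18 mitochondrial oxidation genes (horizontal axis, in order of their step), with a point for each library, blue for OCP and red for OC, and a line at each group's mean. In 16 genes all 3 OC points lie below all 3 OCP points, beside 36% of all genes tested. Acadl has its OC points above, and the groups of Etfa overlap.

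The genes of the later steps, hydration, second dehydrogenation and thiolysis, were all lower in OC, 5 of 5, beside 32.1% of all genes tested. Hadha and Hadhb, which encode the alpha and beta subunits of the trifunctional protein that runs these steps on long chains, are neighbours on chromosome 5 transcribed away from each other. In RefSeq (GRCm38.p6) their start sites lie 273 bases apart, so the windows from 250 bases before to 50 bases after each start share 228 bases. These windows are shown because they overlap and both genes fell, as 2 of the 15 among 18 mitochondrial oxidation genes that did. Each is printed 5′ to 3′ in the gene's own direction, with GC boxes (GGGCGG on either strand) in capitals.
Hadha, chr5:30154931-30155230, minus strand: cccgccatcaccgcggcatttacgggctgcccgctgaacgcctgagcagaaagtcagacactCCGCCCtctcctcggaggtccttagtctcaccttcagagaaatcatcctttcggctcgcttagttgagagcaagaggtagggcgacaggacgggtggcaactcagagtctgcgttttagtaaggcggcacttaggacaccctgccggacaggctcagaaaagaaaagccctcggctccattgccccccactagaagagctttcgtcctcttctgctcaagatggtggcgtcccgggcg
Hadhb, chr5:30155003-30155302, plus strand: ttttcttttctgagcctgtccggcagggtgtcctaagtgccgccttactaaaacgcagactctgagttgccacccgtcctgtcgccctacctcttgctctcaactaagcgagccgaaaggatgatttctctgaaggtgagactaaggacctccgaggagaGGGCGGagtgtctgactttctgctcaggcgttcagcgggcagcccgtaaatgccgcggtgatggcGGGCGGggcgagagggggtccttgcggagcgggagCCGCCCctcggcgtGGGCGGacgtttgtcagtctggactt
The Hadha window holds 1 GC box, the Hadhb window 4, and neither holds the TATA box TATAAA on either strand. Of 30 RefSeq windows found for 27 of the 36 genes, 24 (80%) held a GC box, beside 35.7% of all 32851 windows of the same length. None of the 30 held TATAAA, beside 13.6% of all windows, and their median GC content was 60.8%, beside 52.7%. The windows of all genes were not limited to genes that passed the filter here, so these shares may not be particular to the genes described. A match of letters is a description of the window and not a bound site.

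Hadha fell 1.18-fold, from 22.1 ± 0.405 to 18.7 ± 0.598 RPKM (log2 fold change -0.23, SE 0.05, adjusted p = 0.0036). Hadhb fell 1.29-fold, from 2.96 ± 0.237 to 2.29 ± 0.163 RPKM (-0.27, SE 0.07, adjusted p = 0.014). With 0.1 added to the RPKM in place of 1, the log2 fold changes were -0.24 for Hadha and -0.36 for Hadhb. The Hadha to Hadhb ratio of RPKM was 6.76 to 7.94 in OCP and 7.86 to 8.53 in OC, overlapping ranges. Both subunits share a complex in equal numbers, yet their RPKM differed widely in every library. The counted exon length of Hadhb, 6595 bases, was 3.22 times that of its principal transcript in GENCODE M21, against 2.17 times for Hadha. The RPKM of both may therefore be lowered by exons that the main transcript lacks, and how many reads fell in those exons was not tested. Per kilobase of the principal transcript the OCP means would be 48.0 for Hadha and 9.54 for Hadhb. Hadhb also has a processed pseudogene, Gm13910, that matches 1428 bases at 99.8% identity and averaged 0.478 RPKM in OCP and 0.232 in OC. The sources used here do not give how reads that fit both places were treated, so Hadhb is uncertain.

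Echs1, the short-chain enoyl-CoA hydratase, fell from 3.84 ± 0.238 to 3.14 ± 0.335 RPKM, the least firm call of these steps (adjusted p = 0.034). Echs1 missed the threshold when genes of every level were fitted (log2 fold change -0.23 in both fits, adjusted p = 0.078). It also missed it when replicate 1 or 3 of OCP, or 2 or 3 of OC, was left out (log2 fold change -0.25 to -0.19, adjusted p between 0.065 and 0.11). Hadh, the hydroxyacyl-CoA dehydrogenase for short and medium chains, measured 8.06, 7.68 and 7.77 RPKM in OCP and 5.52, 4.52 and 5.52 RPKM in OC. Its groups did not overlap, and it fell 1.51-fold (adjusted p = 0.00068).

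Acaa2, the mitochondrial thiolase that ends each round, had the largest fall of the 36 genes. It lies on chromosome 18 (74779197 to 74806207) and measured 69.4, 68.0 and 70.7 RPKM in OCP and 34.7, 35.5 and 33.6 RPKM in OC. Replicates differed by at most a few RPKM and the groups were far apart, a 2.01-fold fall (log2 fold change -0.98, SE 0.04, adjusted p = 1.2e-06).

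Unsaturated chains need extra isomerases and a reductase, and all 3 of these genes fell, beside 32.1% of all genes tested. Eci1 fell from 14.7 ± 1.18 to 10.3 ± 0.539 RPKM (adjusted p = 0.00063), and the dienoyl-CoA reductase Decr1 from 2.93 ± 0.308 to 2.13 ± 0.158 RPKM (adjusted p = 0.0080). Eci2, which works in peroxisomes as well, fell from 9.58 ± 0.691 to 7.98 ± 0.395 RPKM (log2 fold change -0.24, adjusted p = 0.016). With OC replicate 3 left out the value was -0.21 and missed the threshold (adjusted p = 0.053).

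The electron transfer flavoprotein takes electrons from every acyl-CoA dehydrogenase, and its subunit genes did not move together. Etfb, the beta subunit (chromosome 7, 43444083 to 43457800), measured 185, 189 and 189 RPKM in OCP and 108, 106 and 106 RPKM in OC. It was the most abundant of the mitochondrial oxidation genes in both groups and fell 1.76-fold with little spread (log2 fold change -0.81, SE 0.04, adjusted p = 1.7e-06). Etfa, the alpha subunit, measured 37.4, 31.4 and 34.2 RPKM in OCP and 35.8, 33.4 and 38.5 RPKM in OC. These values overlapped and did not pass (log2 fold change 0.06, SE 0.08, adjusted p = 0.50). Etfdh, the dehydrogenase that hands the electrons to ubiquinone, fell from 10.8 ± 0.528 to 8.77 ± 0.513 RPKM (adjusted p = 0.0060). The value of Etfb is uncertain, because 53.0% of its counted bases also belong to Gm45233, an overlapping gene on the same strand whose level averaged 220 RPKM in OCP and 125 in OC. The 2 rows held nearly the same number of reads. Etfb had 8064 to 9047 in OCP and 4084 to 4683 in OC, and Gm45233 had 7993 to 8980 and 4049 to 4650. How reads in the shared bases were assigned was not tested.

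The summed RPKM of the 18 mitochondrial oxidation genes was 517, 510 and 515 in OCP and 368, 358 and 360 in OC. The largest term of the difference was Etfb, with means of 187 RPKM in OCP and 106 RPKM in OC. Acaa2 was next, at 69.4 and 34.6 RPKM. Since the value of Etfb is uncertain, as given above, so is the size of the fall in the sum. By count, 15 of the 18 fell, 1 rose and 2 did not pass, beside 32.1% lower and 23.5% higher among all genes tested. The median log2 fold change was -0.30 for the 18 and -0.05 for all genes.

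Peroxisomal oxidation genes were divided. Acaa1a, the peroxisomal thiolase, fell from 25.9 ± 1.07 to 21.4 ± 0.420 RPKM (adjusted p = 0.0022). Its coding copy Acaa1b matches 1428 bases at 96.6% identity but was below 0.5 RPKM in both groups on average. Hsd17b4, the D-bifunctional protein, measured 35.8 ± 0.217 RPKM in OCP against 36.7 ± 1.99 in OC and did not pass (adjusted p = 0.63). Acox3, an acyl-CoA oxidase for branched chains, and Ehhadh, the L-bifunctional protein, were under the filter. They were therefore taken from a limma voom fit on whole reads recovered from the RPKM of genes whose mean reached 10 reads, in which 26.9% of 15802 genes were higher and 25.1% lower. Acox3 measured 0.610, 0.673 and 0.624 RPKM in OCP and 1.13, 0.941 and 1.16 RPKM in OC, all OC libraries above, and it rose in that fit (log2 fold change 0.81, adjusted p = 1.2e-06). Ehhadh measured 1.12, 0.901 and 1.08 RPKM in OCP and 0.795, 0.788 and 0.730 RPKM in OC, and its lower value did not pass there (log2 fold change -0.37, adjusted p = 0.076). These voom values are not on the log2(RPKM + 1) scale of the other genes. On that scale, limma without the filter gave 0.34 for Acox3 (adjusted p = 0.011) and -0.20 for Ehhadh (adjusted p = 0.075).

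The fatty acid binding proteins, small cytosolic carriers, had the largest rises. Fabp4, known from adipocytes and macrophages (chromosome 3, 10204088 to 10208576), measured 1.13, 0.920 and 0.885 RPKM in OCP and 13.2, 12.2 and 13.2 RPKM in OC. That is 146 to 214 reads against 1822 to 2256 reads, groups far apart, and a 13.2-fold ratio of means (log2 fold change of RPKM + 1 of 2.81, SE 0.07, adjusted p = 4.4e-08). The pseudocount of 1 shrinks this value, which was 3.59 with a pseudocount of 0.1. Adipocyte markers were near 0 beside it. Of 12 such markers 6 had a row, none was tested, and their summed level was 0.0900 to 0.239 RPKM in OCP and 0.224 to 0.368 RPKM in OC. Adipoq was at 0 in 5 of the 6 libraries and at 0.0436 RPKM in OC replicate 2. Fabp5, the epidermal-type carrier 187481 bases away on the same chromosome (10012548 to 10016607), measured 156, 156 and 157 RPKM in OCP and 375, 426 and 380 RPKM in OC. It rose 2.52-fold (log2 fold change 1.33, SE 0.05, adjusted p = 8.7e-07) and had the highest level of the 36 genes in OC. Counted exons of Fabp4 and Fabp5 were 5.01 and 3.61 times as long as their principal transcripts, so both levels per length may be understated.

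Fabp5 has processed pseudogenes close to it in sequence, and one of them changed far more than Fabp5 itself. Gm6166 (chromosome 9, 57483963 to 57484371), a 409-base row that matches the Fabp5 transcript at 98.3% identity, measured 8.59, 11.5 and 10.5 RPKM in OCP and 220, 245 and 227 RPKM in OC. All OC libraries were far above, at 3146 to 3538 reads against 148 to 187 (log2 fold change 4.38, SE 0.10, adjusted p = 4.0e-08). As a share of the Fabp5 reads these were 0.631% to 0.849% in OCP and 6.59% to 6.84% in OC. The row that surrounds it, RP23-371B13.5, held 0 to 2 reads in OCP and 12 to 17 in OC. Adding the reads of Gm6166 and 4 other copies to those of Fabp5 turned its 2.52-fold ratio into 2.67-fold. Gm6166 was named after its values were seen, and where its reads arose was not tested.

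Perilipins coat lipid droplets, and the 2 measured here moved in opposite directions. Plin2, the main droplet coat of macrophages, measured 82.2, 80.1 and 80.2 RPKM in OCP and 99.8, 92.9 and 93.6 RPKM in OC. It rose 1.18-fold with no overlap (log2 fold change 0.24, SE 0.04, adjusted p = 0.0025). Plin3, which moves between cytosol and droplets (chromosome 17, 56278962 to 56290511), measured 79.1, 83.6 and 83.0 RPKM in OCP and 50.2, 47.6 and 48.0 RPKM in OC. It fell 1.69-fold (log2 fold change -0.74, SE 0.04, adjusted p = 6.7e-06). Per counted length both had nearly the same level in OCP, with a Plin2 to Plin3 ratio of 0.958 to 1.04, and the ratio was 1.95 to 1.99 in OC. Per kilobase of the principal transcript the OCP means would be 150 for Plin2 and 48.5 for Plin3. The counted exons of Plin3, 2159 bases, do not cover its principal transcript of 3645 bases. Its rescaled value may therefore be understated, and the gap to Plin2 is uncertain.

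Their RefSeq start windows are shown because these related genes parted, with GC boxes, CCAAT boxes (CCAAT on either strand) and E-boxes (CACGTG) in capitals.
Plin2, chr4:86670010-86670309, minus strand: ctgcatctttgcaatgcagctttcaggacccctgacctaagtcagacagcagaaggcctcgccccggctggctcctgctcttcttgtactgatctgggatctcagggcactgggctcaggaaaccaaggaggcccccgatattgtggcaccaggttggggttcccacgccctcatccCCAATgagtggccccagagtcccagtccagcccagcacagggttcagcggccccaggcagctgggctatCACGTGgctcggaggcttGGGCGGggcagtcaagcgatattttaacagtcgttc
Plin3, chr17:56290462-56290761, minus strand: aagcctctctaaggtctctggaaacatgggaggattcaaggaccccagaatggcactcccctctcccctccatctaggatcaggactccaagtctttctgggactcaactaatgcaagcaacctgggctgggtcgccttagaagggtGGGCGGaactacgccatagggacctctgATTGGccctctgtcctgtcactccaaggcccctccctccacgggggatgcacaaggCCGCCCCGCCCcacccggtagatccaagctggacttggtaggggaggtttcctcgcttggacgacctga
The Plin2 window holds 1 GC box, 1 CCAAT box and 1 E-box, the last beginning 4 bases before the start. The Plin3 window holds 3 GC boxes, of which a pair shares a base, and 1 CCAAT box, and no E-box. An E-box occurred in 3 of the 30 windows (10%) beside 7.15% of all windows. A DR1 element, the AGGTCANAGGTCA arrangement that peroxisome proliferator-activated receptors can bind, was searched on both strands with up to 2 mismatches and occurred in 3 of the 30 windows (Plin2, Etfa and Echs1), beside 3.86% of all windows. The estrogen-related receptor element TCAAGGTCA occurred in 0 of the 30 windows and in 0.423% of all windows.

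**Figure D3:**
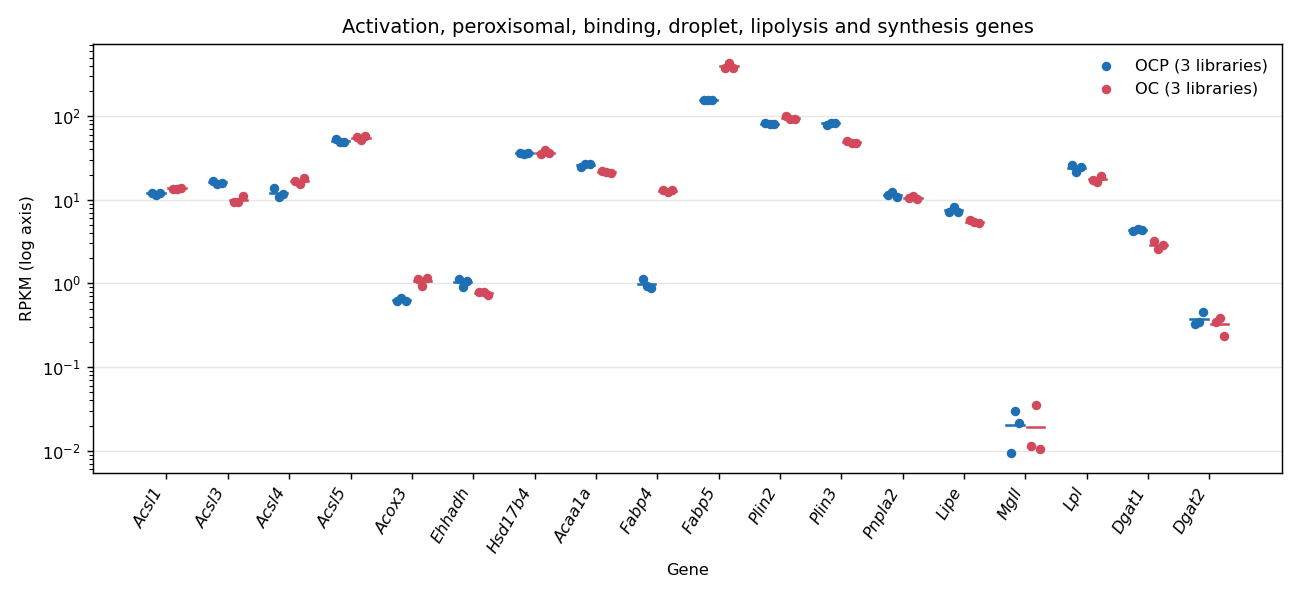
RPKM on a log axis for the other 18 genes (horizontal axis, in order of role), with a point for each library, blue for OCP and red for OC, and a line at each group's mean. Fabp4 and Fabp5 stand far upward in OC, Acsl3 and Plin3 stand clearly downward, and Mgll is near 0.02 RPKM in both groups.

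Lipases release the stored and the circulating fat. Pnpla2, the adipose triglyceride lipase that starts droplet lipolysis, measured 11.5 ± 0.740 RPKM in OCP against 10.6 ± 0.510 in OC and did not pass (adjusted p = 0.19). Lipe, the hormone-sensitive lipase of the next step, fell 1.37-fold, from 7.51 ± 0.675 to 5.49 ± 0.221 RPKM (log2 fold change -0.39, SE 0.07, adjusted p = 0.0020). Mgll, the monoglyceride lipase of the last step, held only 2 to 6 reads per library in either group, too few for a comparison at this depth. Lpl, the secreted lipoprotein lipase, measured 26.1, 21.5 and 24.3 RPKM in OCP and 17.0, 16.4 and 19.5 RPKM in OC, groups that did not overlap, and it fell 1.36-fold (adjusted p = 0.0038). Exons of Lipe share 15.6% of their bases with 4732471J01Rik on the opposite strand.

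The enzymes that complete triglyceride differ widely in level. Dgat1 measured 4.28, 4.49 and 4.36 RPKM in OCP and 3.23, 2.57 and 2.89 RPKM in OC. It fell 1.51-fold (log2 fold change -0.47, SE 0.07, adjusted p = 0.00099). Dgat2, under the filter, held 42 to 52 reads in OCP and 28 to 40 reads in OC, at 0.378 ± 0.0707 and 0.324 ± 0.0779 RPKM, and did not pass in the voom fit (log2 fold change -0.19, adjusted p = 0.59). Of the 10 genes of binding, coating, lipolysis and triglyceride synthesis, 8 were tested, of which 3 rose and 4 fell, beside 23.5% and 32.1% of all genes, and Fabp4 among the 3 passed the filter only through OC.

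Ratios of related genes were compared within each library, for 8 pairs set by family, with an exact two-sided permutation test that for 3 against 3 libraries cannot go below p = 0.10. The smallest exact permutation p was reached by 4 pairs (0.20 after adjustment over the 8 pairs). The Fabp5 to Fabp4 ratio was 138 to 177 in OCP and 28.3 to 34.9 in OC. Acsl3 to Acsl5 went from 0.314 to 0.329 in OCP to between 0.167 and 0.189 in OC, and Acadl to Acadm from between 2.43 and 2.49 to between 3.29 and 3.68. The perilipin pair, given above, was the other. Acsl1 to Acsl4, Hadha to Hadhb and Dgat1 to Dgat2 had overlapping ranges (exact permutation p = 0.20 each), and Pnpla2 to Mgll rests on the few reads of Mgll.

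**Figure D4:**
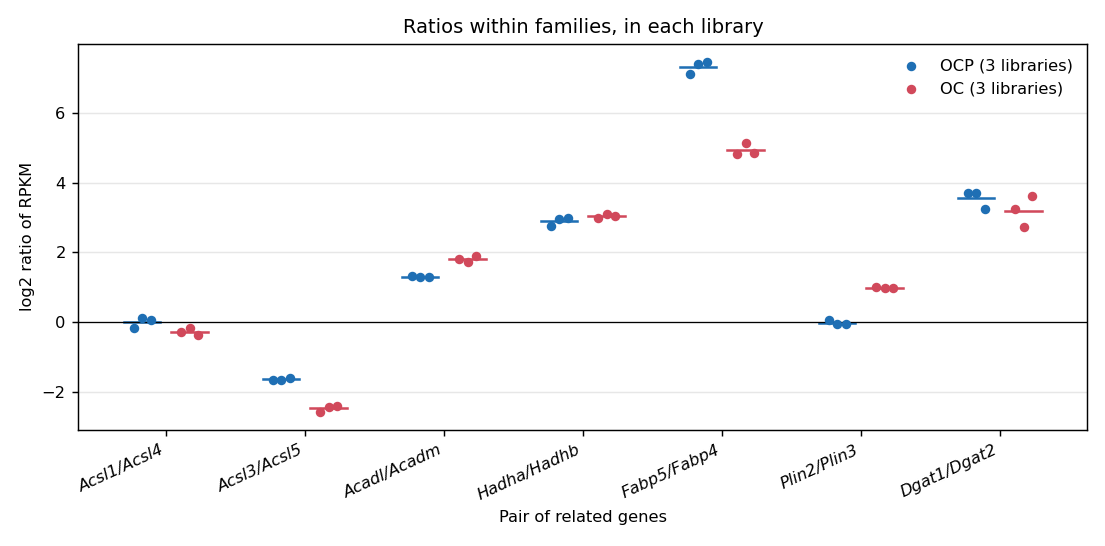
Log2 ratio of RPKM (vertical axis) of 7 pairs of related genes in each library, blue for OCP and red for OC, with a line at each group's mean. The groups do not overlap for Acsl3/Acsl5, Acadl/Acadm, Fabp5/Fabp4 and Plin2/Plin3, and they overlap for the other 3 pairs.

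Other genes of the same pathways, from 8 lists that hold none of the 36, had 39 genes lower and 19 higher of 88 tested, beside 32.1% lower and 23.5% higher among all genes tested, with a median log2 fold change of -0.12 against -0.05. The counts of the single lists below are to be read against the same shares. The lists nearest to oxidation leaned to lower values. Of 5 tested genes of the carnitine cycle and its malonyl-CoA control 4 fell, among them the decarboxylase Mlycd, from 3.65 ± 0.397 to 2.43 ± 0.0987 RPKM, and the carnitine-acylcarnitine carrier Slc25a20, from 3.14 ± 0.208 to 2.36 ± 0.250 RPKM. Of 15 other mitochondrial genes 9 fell and 2 rose. Acad10 had the largest fall, from 4.84 ± 0.268 to 2.04 ± 0.175 RPKM, followed by the hydroxyacyl-CoA dehydrogenase Hsd17b10, from 61.6 ± 2.92 to 37.6 ± 3.14 RPKM, while Acadsb rose from 4.08 ± 0.458 to 6.09 ± 0.556 RPKM and the thioesterase Acot9 from 18.2 ± 2.46 to 22.9 ± 0.528 RPKM. Of 12 other peroxisomal genes 8 fell and 2 rose. Amacr, the racemase of branched acyl-CoA, fell from 14.3 ± 0.542 to 6.64 ± 0.353 RPKM and Pecr from 9.68 ± 0.698 to 6.66 ± 0.223 RPKM. Phyh, which starts phytanic acid breakdown, rose from 17.5 ± 1.14 to 26.5 ± 0.135 RPKM, and Abcd4, listed with its peroxisomal relatives but known as a lysosomal cobalamin transporter, from 1.92 ± 0.115 to 7.41 ± 0.153 RPKM.

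Lists of uptake, droplets, lipolysis and esterification were mixed. Among 7 tested genes of activation and uptake 3 rose and 3 fell, with the fatty acid translocase Cd36 higher, from 10.3 ± 1.61 to 27.1 ± 2.59 RPKM, and the binding protein Fabp3 higher, from 4.45 ± 0.194 to 10.7 ± 0.907 RPKM. Acss2 fell from 2.09 ± 0.141 to 1.47 ± 0.124 RPKM and the acyl-CoA binding protein Dbi from 42.0 ± 2.88 to 33.6 ± 1.42 RPKM. Among 10 other droplet genes 2 rose and 2 fell. Hilpda and G0s2, known inhibitors of the lipase encoded by Pnpla2, changed in opposite directions. Hilpda rose from 2.37 ± 0.486 to 9.82 ± 0.849 RPKM (adjusted p = 8.7e-06) and G0s2 fell from 7.33 ± 0.530 to 1.68 ± 0.0441 RPKM (adjusted p = 7.2e-07). Tmem159 also rose, from 2.78 ± 0.383 to 3.65 ± 0.232 RPKM, and Aup1 fell from 36.7 ± 1.07 to 31.3 ± 1.65 RPKM.

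Of 9 other lipase genes 2 rose and 3 fell, near the shares of all genes. The lysosomal acid lipase Lipa rose from 16.2 ± 1.01 to 21.5 ± 0.818 RPKM and Ddhd2 from 1.70 ± 0.0852 to 2.15 ± 0.0802 RPKM, while Pnpla7 fell from 6.87 ± 0.416 to 4.69 ± 0.203 RPKM and Ddhd1 from 5.09 ± 0.284 to 4.03 ± 0.216 RPKM. Glycerolipid synthesis had 5 rises and 5 falls among 15 tested genes. The glycerol kinase Gk rose from 1.67 ± 0.160 to 2.70 ± 0.179 RPKM and the phosphatidate phosphatase Lpin2 from 4.12 ± 0.0297 to 5.90 ± 0.308 RPKM, while the acyltransferase Agpat4 fell from 49.1 ± 2.10 to 30.3 ± 1.27 RPKM and Lpin3, which like Gpd1 of this list passed the filter only through OCP, from 1.81 ± 0.245 to 0.768 ± 0.0727 RPKM. Of 16 tested regulators of the pathway 6 fell and 3 rose, also near the shares of all genes. Ppargc1b, the coactivator of mitochondrial biogenesis known from osteoclasts, fell from 47.8 ± 2.93 to 30.3 ± 0.822 RPKM and Tfeb from 5.84 ± 0.522 to 4.02 ± 0.308 RPKM. Hif1a, the hypoxia-inducible factor, rose from 47.7 ± 5.28 to 89.7 ± 9.59 RPKM and the corepressor Ncor1 from 14.6 ± 0.925 to 19.5 ± 1.34 RPKM.

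**Figure D5:**
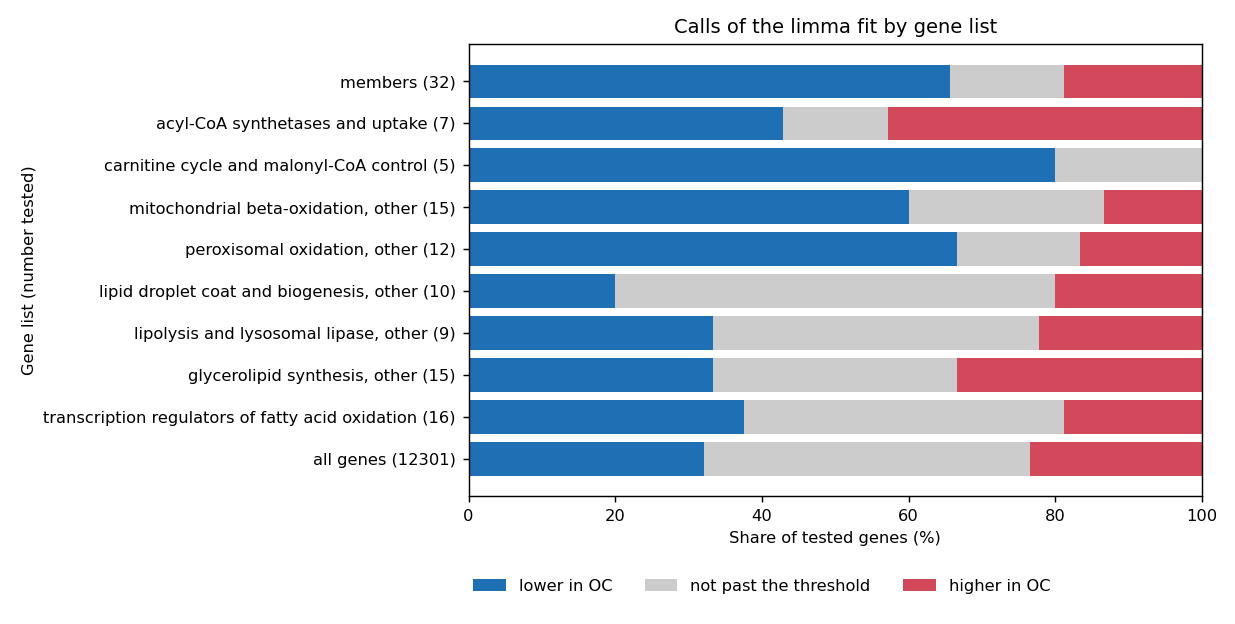
Share of tested genes (horizontal axis, percent) that were lower (blue), not past the threshold (grey) or higher (red) in OC by limma, for the 32 tested genes described here (members), the 8 lists of other pathway genes and all 12301 genes, with the number tested in brackets. Blue is wider than red for the members, for all genes and in the carnitine, mitochondrial, peroxisomal, lipolysis and regulator lists, and red and blue are equal in the lists of uptake, droplet and glycerolipid genes.

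Markers of other cells of the marrow were looked at as well. Stromal and endothelial marker lists summed to 3.56 to 3.69 and 3.68 to 3.84 RPKM in OCP and to 3.47 to 3.76 and 2.72 to 3.24 RPKM in OC, with Col1a1 and Kdr the most abundant, at 0.851 and 1.75 RPKM in OCP. Neutrophil markers rose in 4 of 4 tested cases, beside 23.5% of all genes tested. Their sum was 40.5 to 45.1 RPKM in OCP and 57.8 to 64.0 RPKM in OC, with S100a9 the most abundant at 23.2 and 31.9 RPKM.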

How the data were processed

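The table of RPKM values was deposited by the authors for 6 libraries. Per the submitters' processing notes, Trimmomatic 0.36, STAR 2.5.3a and featureCounts were used, with the human build GRCh38 named, but the table's coordinates are of mouse genes: 28 of the 36 genes have the same ends in GENCODE M21 (GRCm38). The deposited lengths in bases, per the file headers, gave whole reads for 100% of values within 0.01 reads. Genes that reached 1 RPKM in 3 or more libraries were fitted with limma 3.58.1 (R 4.3.3) on log2(RPKM + 1), with a trended, robust variance, and p-values were adjusted by Benjamini-Hochberg over all 12301 genes, two-sided. The limma fit was tested on simulated reads, with its main, voom and TMM settings. Copies were sought with blastn 2.17.0 (at least 85% identity over 50% of the shorter sequence). Sequences are from RefSeq. The genes and lists were chosen with earlier results of these data known. All 36 genes were named, with values per library for those called and at least 1.5-fold different, and of each list up to 2 called genes in each direction. Gpat3 was matched as Agpat9. Alternatives were a pseudocount of 0.1, no filter, a minimum mean of 5 RPKM, quantile and TMM scaling, no trend, a replicate block, voom on at least 10 reads and leaving out each library.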

Additional observations from a re-analysis of the deposited data

How the results depend on the processing

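Of the 27 called genes, 23 kept their direction and their side of the threshold under every alternative in which they were tested, and none turned. There were 14 alternatives, or 13 for Hadhb, Decr1 and Dgat1, which a mean of at least 5 RPKM left out. The other 4 were Acadl, Acad9, Echs1 and Eci2, whose lost calls are given above. Over the alternatives 16 to 22 of the genes were lower and 5 to 8 higher, and leaving out each library gave 18 to 21 and 5 to 6. With a mean of at least 5 RPKM only 27 of the 36 were tested, 24 other pathway genes were lower against 39, and 1645 of all genes higher against 2889, since fewer genes were tested. Acsl5 passed as higher after quantile normalization, by voom and without OC replicate 2 (log2 fold change 0.21, 0.18 and 0.18), and Cpt1a as lower after quantile normalization (-0.16); the cause was not tested. With a pseudocount of 1 in both genes, the log2 Fabp5/Fabp4 ratio changed by -1.49 between the groups, against -2.39 without it. Deviations from the group means correlated at r of -0.11, 0.14 and 0.01 for libraries with the same number (1, 2 and 3). Libraries with unlike numbers gave r of -0.28 to 0.26. These values cannot tell whether libraries of the same number were paired. With the replicate block 20 genes were lower and 6 higher, and Acad9 was lost (adjusted p = 0.057). TMM factors left 21 lower and 6 higher. Depth limits Mgll and Dgat2.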
